A study of Mus musculus with 2 samples.

Results

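The cells described here, selected on their UMI counts of 9 genes, were the cycling members of a population without Ptprc RNA in MC38 tumours. They were 162 of the 5686 deposited barcodes, 76 in replicate 1 and 86 in replicate 2. A barcode was a member if it had 300 or more detected genes, under 10% mitochondrial UMIs and 1000 or more UMIs (unique molecular identifiers, each standing for 1 captured RNA molecule). It also had to have 0 UMIs of Ptprc, Tyrobp, Fcer1g and Laptm5, which mark leukocytes, 0 UMIs of Col1a1 and Pecam1, and under 2 UMIs of Mgp. Of the 495 barcodes of replicate 1 and 529 of replicate 2 that passed these conditions, the members had 2 or more UMIs of Mki67 and Top2a together, so levels of these 9 genes are a description and were not tested. The members were set against the 358 and 353 barcodes of the same gate with 0 UMIs of both genes, called non-cycling here. A further 61 and 90 gated barcodes had 1 UMI and were in neither class.

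MC38 is a mouse colon carcinoma line that grows as a tumour in mice. Immune cells were sorted by flow cytometry from such tumours on day 21 and profiled with a droplet 3′ single-cell RNA-seq kit in 2 replicate libraries of 1 group. The labels name no treatment, genotype, strain or age, and nothing says whether the replicates were separate animals. Each library therefore held both the cycling and the non-cycling cells, and all comparisons were made within libraries.

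A dividing cell copies its DNA in S phase, when nucleotide synthesis enzymes, replication factors and histones are made in bulk, and then builds a spindle and divides in G2 and M phase under cyclin B and Cdk1, the Aurora and Polo kinases and the anaphase-promoting complex (APC/C). Mki67 coats mitotic chromosomes and is absent from resting cells, and Top2a untangles replicated DNA. RNA of both builds up through S phase and is highest around mitosis. Many mitotic genes are repressed in resting cells by the DREAM complex, which binds the cell cycle genes homology region (CHR) in their promoters, while the factor NF-Y binds CCAAT boxes there.

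The promoters of 4 genes that were higher in the cycling cells are shown because the CHR and CCAAT letters stood in a larger share of such promoters than of all tested ones, as given below the sequences. Sequences are from RefSeq, build GRCm38.p6, 250 bases before to 50 bases after the gene start, read 5′ to 3′ on the gene's strand. Capitals mark TTTGAA (CHR) and CCAAT on either strand.
Ube2c, chr2:164769679-164769978 (+): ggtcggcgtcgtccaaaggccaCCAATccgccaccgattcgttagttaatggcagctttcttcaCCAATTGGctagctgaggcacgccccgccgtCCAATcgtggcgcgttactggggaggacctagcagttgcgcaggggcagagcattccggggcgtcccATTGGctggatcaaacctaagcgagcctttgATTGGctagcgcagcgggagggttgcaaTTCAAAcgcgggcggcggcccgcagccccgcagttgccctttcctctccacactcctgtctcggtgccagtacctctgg
Cenpf, chr1:189688037-189688336 (-): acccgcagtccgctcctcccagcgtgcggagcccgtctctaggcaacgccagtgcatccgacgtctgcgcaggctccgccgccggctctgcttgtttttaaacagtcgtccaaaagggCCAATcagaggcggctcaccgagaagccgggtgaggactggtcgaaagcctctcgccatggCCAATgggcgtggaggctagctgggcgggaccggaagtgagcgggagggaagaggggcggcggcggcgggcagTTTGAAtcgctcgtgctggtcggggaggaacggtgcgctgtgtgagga
Hist1h2ae, chr13:23571171-23571470 (-): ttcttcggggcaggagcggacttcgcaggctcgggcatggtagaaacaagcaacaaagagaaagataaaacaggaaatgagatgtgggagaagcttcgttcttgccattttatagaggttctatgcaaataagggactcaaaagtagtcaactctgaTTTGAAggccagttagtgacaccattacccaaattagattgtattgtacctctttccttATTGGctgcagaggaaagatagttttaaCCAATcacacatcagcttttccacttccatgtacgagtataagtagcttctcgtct
Birc5, chr11:117848987-117849286 (+): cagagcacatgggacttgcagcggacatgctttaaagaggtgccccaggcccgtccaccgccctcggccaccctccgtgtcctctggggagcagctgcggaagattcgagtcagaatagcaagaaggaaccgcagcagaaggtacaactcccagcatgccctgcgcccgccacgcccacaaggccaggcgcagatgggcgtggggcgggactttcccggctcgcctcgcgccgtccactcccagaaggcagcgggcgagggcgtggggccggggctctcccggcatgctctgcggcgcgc
Ube2c encodes the ubiquitin-conjugating enzyme of the APC/C, and its window held the CHR letters once, with the first base 29 bases before the start, and the CCAAT letters 6 times. The window of Cenpf, a kinetochore protein, held the CHR letters once, just after the start, and CCAAT 2 times. Hist1h2ae, an H2A histone listed in RefSeq as H2ac8, held CHR 93 bases before the start and CCAAT 2 times. The window of Birc5, the survivin subunit of the chromosomal passenger complex, held neither set of letters. Of the 65 genes that were higher in cycling cells in the test below, 52 had a promoter in the table, and 53.8% of those held TTTGAA and 80.8% held CCAAT. Among the 41 with a promoter of the 52 lower genes the shares were 12.2% and 48.8%. Of the 2750 tested genes with a promoter, 14.1% held TTTGAA and 42.5% held CCAAT, and over all 27025 genes in the table the shares were 20.2% and 41.1%. An E2F-type element, searched as TTTCCCGC or TTTGGCGC on both strands, was in 7.69% of the promoters of higher genes, none of the 41 of lower genes, 4.29% of tested and 1.80% of all promoters. Genes with several listed starts counted as holding an element if any of their windows did. Over genes with 1 listed start, TTTGAA was in 52.1% of 48 higher and 8.33% of 36 lower genes. These matches are descriptions of letters, not of binding.

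The label calls these cells tumour-like, and the epithelial markers Krt8, Krt18, Krt19, Epcam, Cdh1 and Cldn7, which epithelial cells express, all had 0 UMIs in the cycling cells of both libraries. The cells are therefore named by their rule only. Of 30 leukocyte markers outside the gate, 14 were at 0 in the cycling cells of replicate 1 and 16 in those of replicate 2, and their summed level was 211 and 124 CPM (counts relative to the class total) in cycling cells, against 700 and 366 CPM in non-cycling cells. Markers at 0 in cycling cells of both libraries included Gzmb, Cd8a, Cd8b1, Csf1r, Csf3r and Cd79a. Others were detected there, such as Cd74 with 14 and 11 UMIs and Cd52 with 16 and 4. A UMI of any of the 30 markers was present in 51.3% and 48.8% of the cycling cells, against 51.1% and 52.4% of the non-cycling cells. Endothelial markers summed to 6.33 and 10.5 CPM in cycling cells, and erythroid and platelet markers to 4.22 and 14.7 CPM. Of the 5 fibroblast markers, Lum was at 0 in cycling cells of both libraries. Dcn was at 576 CPM in replicate 1 and 25.1 CPM in replicate 2, and Col3a1 at 498 and 209 CPM. Pdgfra had 12 and 21 UMIs in cycling cells and Pdgfrb 9 and 5. All 5 summed to 1119 and 289 CPM in cycling cells, against 1536 and 296 CPM in non-cycling cells. A UMI of any of the 5 was present in 90.8% and 69.8% of cycling cells, against 76.8% and 38.8% of non-cycling cells. Vim, the intermediate filament of mesenchymal cells, was at 1106 and 2811 CPM in cycling cells, against 1032 and 2365 CPM in non-cycling cells.

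The gated cells of the 2 libraries stood apart in identity genes, so results are given for each library. In cycling cells, Rhox5, a homeobox gene, was at 458 CPM in replicate 1 and 23.0 CPM in replicate 2. Crabp1, a retinoic acid binding protein, had 0 UMIs in replicate 1 and 1137 CPM in replicate 2, and Lgals7 had 0 UMIs and 632 CPM. Col1a2, a collagen chain not in the gate, had 0 UMIs in replicate 1 and 339 CPM in replicate 2. Cycling leukocyte barcodes of replicate 1 held Xist at 606 CPM, whereas its cycling gated cells had 2 Xist UMIs, 4.22 CPM, and no UMI of a Y-linked gene. Replicate 2 had 0 Xist UMIs in its gated cells and leukocyte barcodes, and its cycling gated cells had 14 UMIs of the Y-linked Ddx3y and 3 of Uty. Depth was similar, at 5688000 UMIs in replicate 1 and 5862342 in replicate 2, and the libraries shared 0 barcodes. Scrublet called 10 and 36 doublets, and none was a cycling gated cell. In replicate 1 its calls were 0.419% of kept barcodes.

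The cycling share of gated cells was 15.4% in replicate 1 (95% Clopper-Pearson interval 12.3 to 18.8) and 16.3% in replicate 2 (13.2 to 19.7), a mean of 15.8% ± 0.639 (SD, n = 2). Intervals here cover counting error only. The gate turns on few UMIs, and the share rose with depth, for a cause that was not tested. In replicate 1 it was 2.90% of cells with 1000 to 2000 UMIs, 14.6% at 2000 to 4000, 34.5% at 4000 to 8000 and 42.5% at 8000 or more. In replicate 2 the same bins gave 3.64%, 16.8%, 32.3% and 64%. Thinned to 1000 UMIs each, 3.23% and 3.21% of gated cells passed, against 2.34% and 1.53% of leukocyte barcodes (7.11% and 5.25% unthinned). The leukocyte barcodes had the same filters and 3 or more UMIs over Ptprc, Tyrobp, Fcer1g and Laptm5. No background from free RNA could be set. Neutrophils do not divide, but barcodes with 10 or more S100a8 and S100a9 UMIs and none of C1qa, C1qb and C1qc, whose depth minimum was dropped after their number was seen, were only 2 and 14, of which 1 and 0 passed. Shares of cells passing this gate are therefore tied to depth and are not a count of all dividing cells.

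Most members entered through Top2a. In replicate 1, 45 had Top2a only, 28 both genes and 3 Mki67 only, and in replicate 2 the numbers were 49, 36 and 1. Top2a summed to 256 and 285 UMIs in the cycling cells and Mki67 to 48 and 61. Members with exactly 2 UMIs numbered 36 and 37. Just inside the threshold, cells with 2 UMIs held Birc5 at 299 and 294 CPM, and just outside it, cells with 1 UMI held 217 and 268 CPM, while cells with 0 held 66.7 and 121 CPM. Hist1h1b, the linker histone H1.5, was at 442 and 153 CPM with 2 UMIs, 296 and 81.1 CPM with 1 UMI and 74.4 and 29.4 CPM with 0. Cells with 1 UMI were thus between both classes in Birc5 and Hist1h1b, and the non-cycling class was not free of either RNA.

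**Figure D1:**
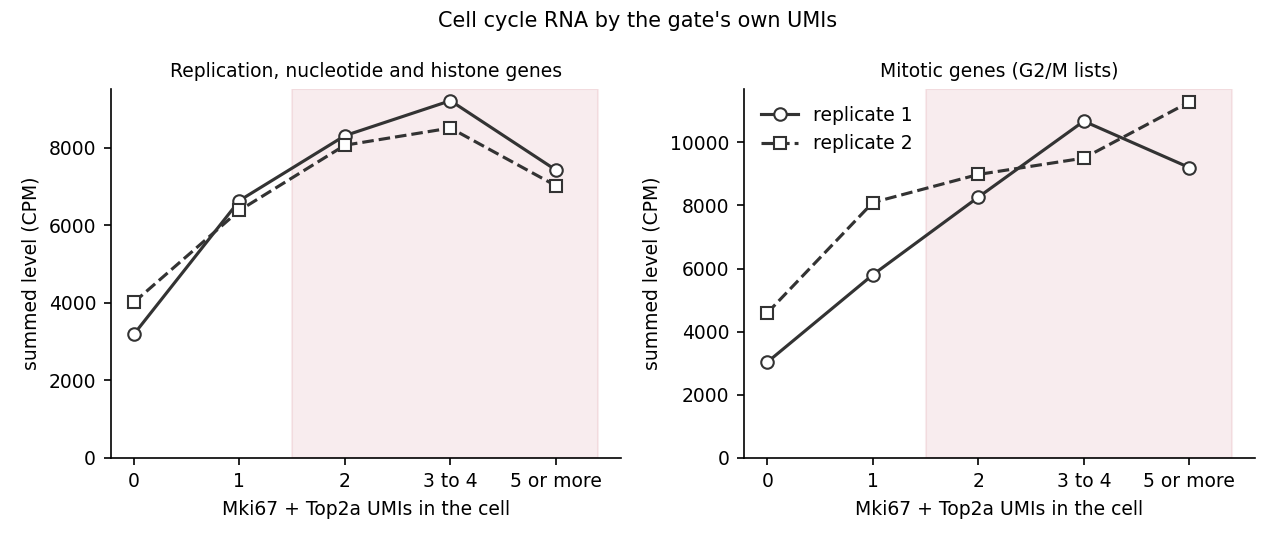
Summed level (CPM) of replication-side genes (132 genes for replication, nucleotide synthesis and histones, left) and of G2/M genes (102 genes, right) in gated cells by their Mki67 plus Top2a UMIs; circles are replicate 1, squares replicate 2, and the shaded range is the cycling class. Replication-side RNA was 8310 and 8063 CPM at 2 UMIs, against 3186 and 4012 CPM at 0.

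With each cell thinned to 1000 UMIs, cycling cells had a median of 8 replication-side UMIs in both libraries, against 2 and 3 in non-cycling cells, and a median of 10 and 9.5 G2/M UMIs, against 2 and 4. In replicate 1, 33 members had more replication-side than G2/M UMIs and 39 had fewer, and in replicate 2 these were 32 and 47. Non-cycling cells divided in a similar way, with 139 against 146 and 147 against 164. No member lacked G2/M UMIs in this count, while 46 of 358 and 37 of 353 non-cycling cells did. Members ranged from 0 to 40 replication-side UMIs in replicate 1 and from 0 to 21 in replicate 2. The lists hold different numbers of genes at different levels, so the counts give no phase of a cell.

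**Figure D2:**
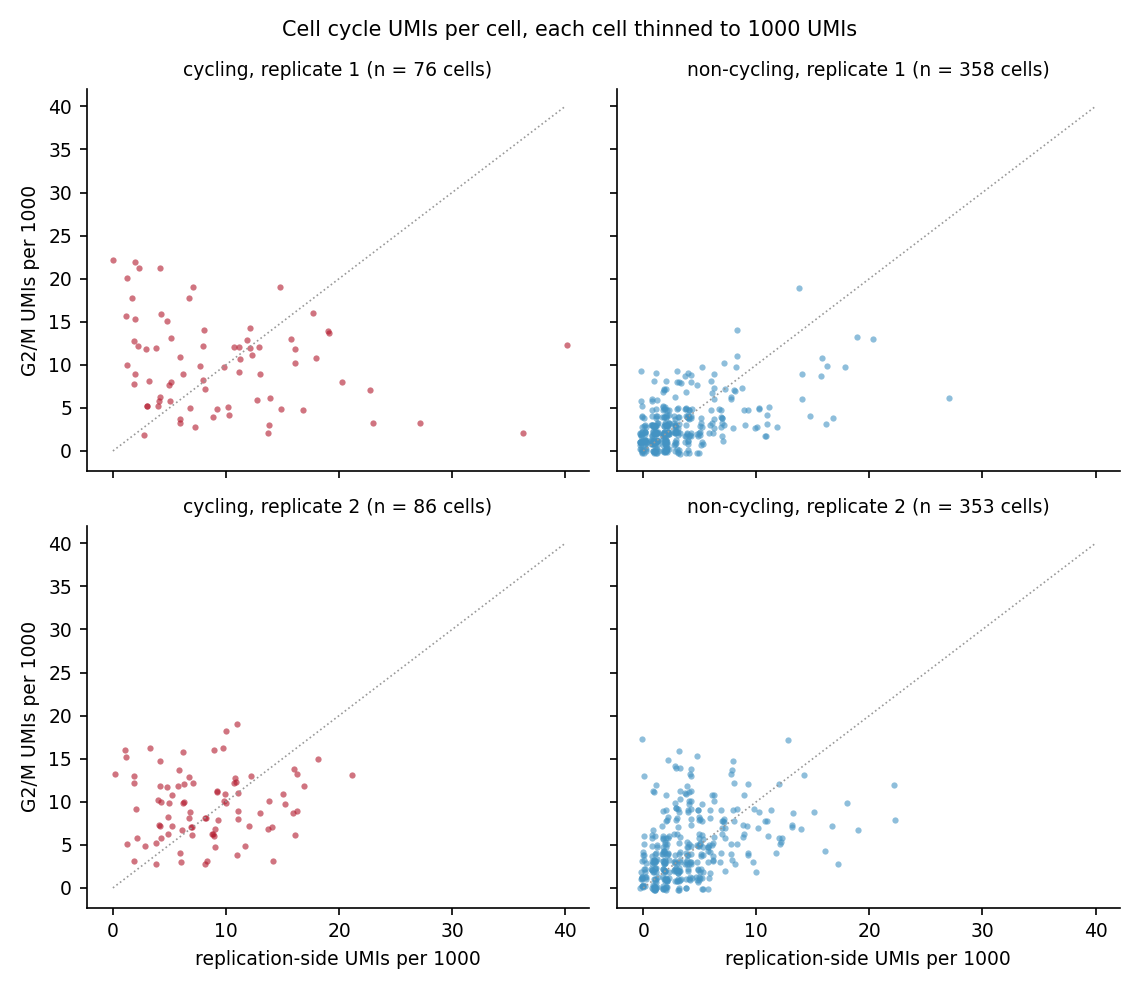
Replication-side UMIs (horizontal) and G2/M UMIs (vertical) per 1000 UMIs of each cell, with cycling cells on the left, non-cycling cells on the right and replicates 1 and 2 above and below; the dotted line marks equal numbers and points are jittered by under 1 UMI. Members lie on both sides of the line, with medians of 8 and 8 against 10 and 9.5 UMIs, and most non-cycling cells sit near the origin.

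Cycling cells had a median of 4687 and 4325.5 UMIs, against 1978 and 2020 in non-cycling cells, so 70 cells of replicate 1 and 76 of replicate 2 were each paired with a non-cycling cell of their own library within 10% of their UMIs. Counts were summed per library and class and fitted with edgeR's quasi-likelihood test with the library as a block, on 3374 genes with a mean of 10 or more UMIs, leaving out the 9 genes of the gate. At a Benjamini-Hochberg adjusted p under 0.05, 65 genes were higher in cycling cells, 1.93% of those tested, and 52 were lower, 1.54%, or 117 in all, 3.47%. All 65 higher genes and 50 of the 52 lower ones had the same direction in both libraries, and Ggct and Ccl2 did not. Of the 314 genes on the 10 cell cycle lists, 134 passed the filter, and 57 were higher and 1 lower. Their median log2 fold change was 0.93, against -0.02 for all tested genes. Among the 3240 tested genes outside these lists, 8 were higher and 51 lower. Genes that vary with Mki67 and Top2a come with the choice of cells, so these calls describe the members and are no independent evidence that they divide.

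The number of calls depended on the settings, and 2 libraries leave 1 residual degree of freedom. DESeq2, with its own size factors, called 13 higher and 6 lower, all 19 among the 117, and gave 1243 of the 3374 genes no adjusted p, while its size factors in edgeR gave 38 and 27. Without the library block edgeR called 0 and 0 of the 3374 genes, with 75 at an unadjusted p under 0.05. Without the filter it called 0 and 0 of 12602 genes, with 478 at an unadjusted p under 0.05. Scaling to library totals without TMM, an alternative chosen after the data were seen, moved the median of all genes by about 0.1, to 0.10, and gave 70 higher and 22 lower.

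**Figure D3:**
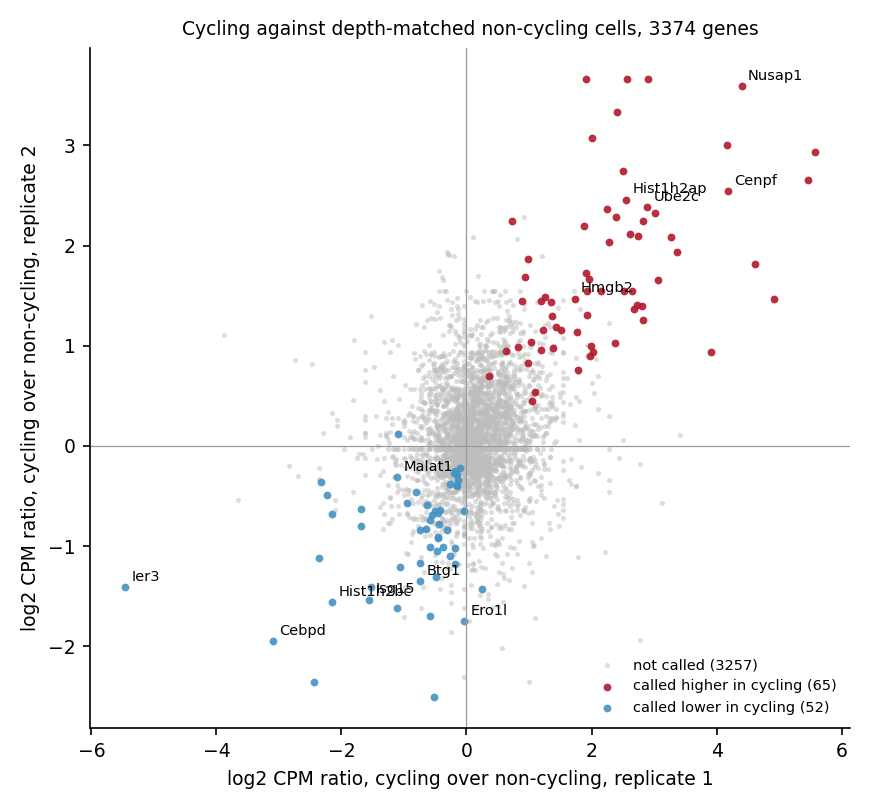
Log2 CPM ratio of cycling over depth-matched non-cycling cells in replicate 1 (horizontal) and replicate 2 (vertical) for 3374 tested genes; red points are the 65 genes called higher, blue points the 52 called lower and grey points the rest. All red points lie in the upper right quadrant, and 50 of 52 blue points in the lower left.

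Replication histones, which package new DNA, were among the clearest changes. Of 67 in the files 14 were tested, 10 were higher and 1 lower, with a median log2 fold change of 2.27. Most such RNAs end in a stem-loop in place of a poly(A) tail, and their copies are so alike that reads could be split between them, so single histone values are uncertain. Hist1h2ap (ENSMUSG00000094777, chr13:21833026-21833507) had 1541 and 2345 CPM in cycling cells of replicates 1 and 2, against 261 and 425 CPM in non-cycling cells. It was 5.25-fold higher (log2 2.39, SE 0.138, edgeR adjusted p = 1.7e-22). Hist1h1b had 374 and 152 CPM in cycling cells, against 64.7 and 21.4 CPM in non-cycling cells, and rose by 2.48 on the log2 scale (SE 0.268, adjusted p = 9.33e-11 by edgeR). Hist1h2ae and Hist1h1e rose by 2.59 and 2.28 on the log2 scale. The exception was Hist1h2bc, an H2B gene, at 24.3 and 44.8 CPM in cycling cells, against 112 and 135 CPM in non-cycling cells, which fell by 1.98 (SE 0.335, edgeR adjusted p = 1.95e-05).

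Of the genes of DNA synthesis, fewer passed. Of 21 tested replication genes 3 were higher, with a median of 0.69 and 20 of 21 above 0, and with DESeq2 size factors in edgeR 0 of the 21 passed. Gmnn, the inhibitor that stops DNA from being licensed again in one cycle, had 94.7 and 105 CPM in cycling cells, against 32.4 and 45.9 CPM in non-cycling cells, and rose by 1.24 (SE 0.342, edgeR adjusted p = 0.021). Mcm3, a subunit of the replicative helicase, rose by 1.25, and Fen1, the flap endonuclease of lagging strands, by 1.52. Of 16 tested nucleotide synthesis genes only Tk1, thymidine kinase, passed, at 94.7 and 50.8 CPM in cycling cells, against 12.4 and 18.4 CPM in non-cycling cells (log2 2.15, SE 0.44). Rrm1 and Tyms, of deoxynucleotide supply, stood at 1.24 and 1.18 on the log2 scale, with adjusted p-values of 0.0704 and 0.0839 by edgeR. Pclaf, the PCNA-associated factor, was the 1 of 4 tested DNA repair genes that rose, by 1.32. None of 6 tested G1/S control genes passed, and Ccnd1, cyclin D1, had 342 and 813 CPM in cycling cells, against 314 and 728 CPM in non-cycling cells.

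The mitotic lists held most of the other calls. Of 10 tested G2/M kinase genes and their partners, 9 were higher, or 6 with DESeq2 size factors in edgeR, with a median of 1.93 in the main test. Cdk1, the kinase that starts mitosis, had 148 and 158 CPM in cycling cells, against 37.3 and 49.0 CPM in non-cycling cells, and rose by 1.72 (SE 0.302, edgeR adjusted p = 3.51e-05). Its partner Ccna2, cyclin A2, rose by 2.44, and the Cdk-binding Cks2 and Cks1b rose by 1.35 and 1.08. Of 15 tested spindle genes 12 were higher, or 8 with DESeq2 size factors in edgeR. Nusap1, a microtubule-bundling protein, had 32 and 18 UMIs in cycling cells and 1 UMI in non-cycling cells of each library, and its log2 fold change of 4.33 (SE 0.658) rests on these low counts. Tpx2, an activator of Aurora A, had 99.5 and 117 CPM in cycling cells, against 19.9 and 21.4 CPM in non-cycling cells, and rose by 2.25. Prc1, of the central spindle, rose by 2.46, and Tubb5, a beta tubulin, by 0.92.

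Kinetochore and checkpoint genes numbered 13 tested, of which 7 were higher and all 13 above 0, with a median of 1.72. Cenpf had 112 and 221 CPM in cycling cells, against 4.98 and 36.7 CPM in non-cycling cells, and rose by 2.95 (SE 0.368, edgeR adjusted p = 1.11e-08). Birc5 had 303 and 338 CPM in cycling cells, against 79.7 and 101 CPM in non-cycling cells, and rose by 1.72 (SE 0.221). Aurkb, the kinase of the same complex, had 27 and 20 UMIs in cycling cells, against 1 and 2 UMIs. Spc24 rose by 2.25. Of 9 tested APC/C and mitotic exit genes 4 were higher, or 1 with DESeq2 size factors in edgeR. Ube2c, whose promoter is printed above, had 396 and 406 CPM in cycling cells, against 52.3 and 76.5 CPM in non-cycling cells, a 5.81-fold difference (log2 2.54, SE 0.23, edgeR adjusted p = 1.74e-13). Cdc20, an APC/C activator, had 92.2 and 65.7 CPM in cycling cells, against 4.98 and 33.7 CPM, so its size was set mostly by replicate 1. Of 26 tested chromosome structure genes 10 were higher, or 4 with DESeq2 size factors in edgeR, among them Hmgb2 (log2 1.51), Smc4 of condensin (1.61), Hmgb1 (0.79) and H2afz (0.70). Hmgb2 had 1301 and 681 CPM in cycling cells, against 391 and 245 CPM in non-cycling cells.

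**Figure D4:**
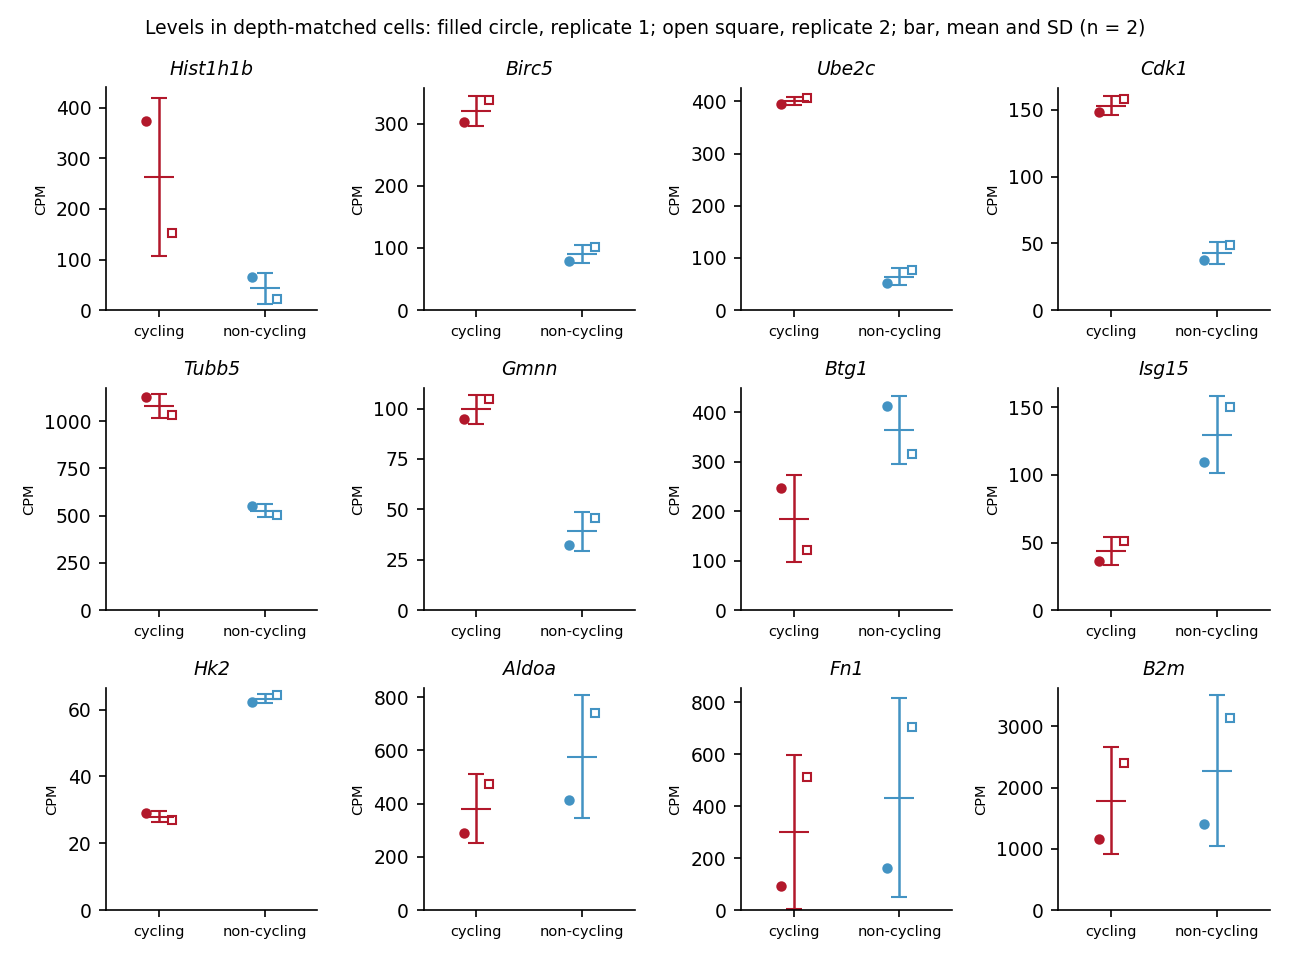
CPM in depth-matched cycling (left) and non-cycling (right) cells of 12 named genes; filled circles are replicate 1, open squares replicate 2, and bars give the mean and SD over 2 libraries. Ube2c, Cdk1 and Birc5 are separated in both libraries, and the wide bars of Fn1 and B2m come from differences between the libraries.

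Outside every list only 7 genes were higher. Hjurp, the chaperone of centromeric histone, had 70.4 and 38.8 CPM in cycling cells, against 14.9 and 12.2 CPM in non-cycling cells (log2 1.88, SE 0.488). Supt16, a subunit of the histone chaperone FACT, rose by 1.18, Ppih, a spliceosome-associated prolyl isomerase, by 1.48, the noncoding RNA Lockd by 1.39, Psma1 of the proteasome by 1.06, Tubb6 by 0.99 and Lsm5 by 0.65. mt-Nd1, a mitochondrial complex I subunit, was the 1 of 13 mitochondrial respiratory genes that passed (log2 0.41, SE 0.113). Together these 13 genes had 38050 CPM in cycling cells of replicate 1, against 39152 CPM in non-cycling cells, and 38086 against 29579 CPM in replicate 2. In cells with no leukocyte marker UMI, mt-Nd1 had 1996 against 1962 CPM in replicate 1 and 2512 against 1360 CPM in replicate 2. No gene passed among 9 nuclear transport genes, although all 9 were above 0 with a median of 0.51, 22 MYC and ribosome biogenesis genes, 75 nuclear respiratory genes, 9 sterol and fatty acid genes and 12 genes that make acetyl-CoA or acetylate histones. In the last of these lists Hat1, which acetylates new histone H4, stood at 0.66 on the log2 scale (adjusted p = 0.517 by edgeR).

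Of the 52 lower genes 17 were on a list, among them genes of interferon response, glycolysis and the ribosome. Isg15, an interferon-induced ubiquitin-like protein, had 36.4 and 50.8 CPM in cycling cells, against 109 and 150 CPM in non-cycling cells, and fell by 1.68 (SE 0.312, edgeR adjusted p = 8.44e-05). B2m, the light chain of MHC class I, fell by 0.45, and these were 2 of 21 tested interferon and MHC genes, of which 18 were below 0. The median log2 CPM ratio of this list was -0.27 in replicate 1 and 0.03 in replicate 2, against 0.11 and 0.08 for all tested genes. It was thus below 0 in replicate 1 only, and below the median of all tested genes in both. With library totals in place of TMM 16 of the 21 genes were below 0 and B2m no longer passed. Cxcl10, an interferon-induced chemokine, fell by 1.53. In cells with no leukocyte marker UMI, Cxcl10 was not tested. It was at 46.4 CPM in cycling cells there, against 87.7 CPM in non-cycling cells, in replicate 1. In replicate 2 it was higher in cycling cells, at 43.0 against 18.5 CPM. Of 20 tested glycolysis and hypoxia genes 4 were lower and 19 below 0, with a median of -0.35. With DESeq2 size factors in edgeR 1 was lower, and with library totals 2 were lower and 17 below 0, with a median of -0.24. Hk2, a hexokinase, had 29.1 and 26.9 CPM in cycling cells, against 62.2 and 64.3 CPM in non-cycling cells, and fell by 1.27 (SE 0.386, edgeR adjusted p = 0.0461), a call lost with either other scaling. The glucose transporter Slc2a1 had 2 and 12 UMIs in cycling cells, against 12 and 26 UMIs, and the aldolase Aldoa fell by 0.70. Ero1l, an oxidase of the endoplasmic reticulum, was lower only by replicate 2, at 21.8 and 74.7 CPM in cycling cells, against 22.4 and 254 CPM.

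Btg1, an antiproliferative gene, had 248 and 123 CPM in cycling cells, against 413 and 315 CPM in non-cycling cells, and fell by 1.10 (SE 0.192, edgeR adjusted p = 3.33e-05). It was the 1 of 8 tested genes of the CDK inhibitor and p53 list to pass. Ier3, an immediate early gene, had 0 and 12 UMIs in cycling cells, against 21 and 32 UMIs in non-cycling cells, and Cebpd, a stress-induced transcription factor, had 1 and 6 UMIs, against 12 and 24. Sqstm1, an autophagy receptor, had 21.8 and 167 CPM in cycling cells, against 24.9 and 379 CPM, so its call rested on replicate 2. Bnip3l, a mitophagy receptor, fell by 1.09 and Cited2 by 1.14. Fn1, fibronectin, and Spp1, osteopontin, were called lower, at -0.68 and -0.78 on the log2 scale, among 21 tested matrix genes. Both calls were lost with DESeq2 size factors and with library totals, and in cells with no leukocyte marker UMI the values were -0.04 and 0.05. Spp1 had 19.4 and 687 CPM in cycling cells, against 102 and 884 CPM.

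Of 82 tested ribosomal protein genes 6 were lower and 79 were below 0, with a median of -0.20, or 0.18 below that of all genes. With library totals in place of TMM none of the 82 passed and 66 were below 0, with a median of -0.08. The nuclear RNA Malat1 had 5293 and 4902 CPM in cycling cells, against 11396 and 6086 CPM in non-cycling cells, and fell by 0.83. Gm42418, a transcript that overlaps a ribosomal RNA repeat, had 35101 and 14178 CPM, against 54286 and 21375 CPM, and fell by 0.73. Malat1, Gm42418, Rhox5, Crabp1 and Lgals7 were chosen for mention after their values were seen.

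The summed level of leukocyte marker RNA was lower in cycling cells of both libraries, while none of the 3 tested markers passed. In the depth-matched cells the 30 markers summed to 223 and 143 CPM in cycling cells, against 264 and 202 CPM in non-cycling cells, and 14 and 17 of them were at 0, against 15 and 14. In cells with 0 UMIs of all 30 markers, 42 of the 52 lower genes could be tested, 40 of them kept their sign with a median log2 fold change of -0.57, against -0.78 for these genes before, and none passed. Of the 65 higher genes 38 could be tested there, 37 kept their sign and 6 passed, with a median of 1.35, against 1.42. These cells are part of the same gated cells that gave the calls, so the kept signs are no independent evidence. In those cells Btg1 stood at -1.13 and B2m at -0.44 on the log2 scale. The part of leukocyte RNA in the result was otherwise not tested.

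**Figure D5:**
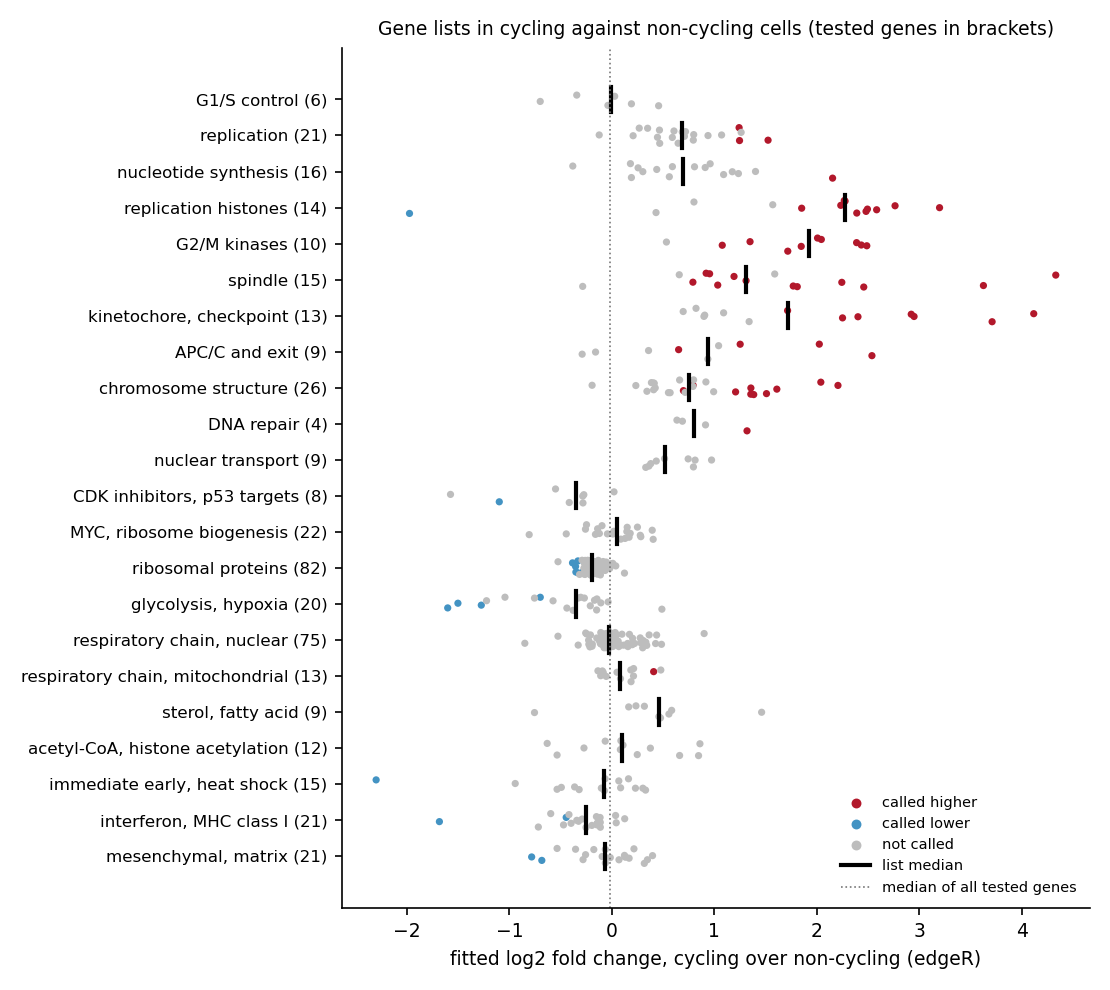
Fitted log2 fold change of each tested gene by list, in cycling over depth-matched non-cycling cells; red genes were called higher, blue lower and grey neither, black bars are list medians, the dotted line is the median of all 3374 genes, and the number tested stands in brackets. Histone and mitotic lists lie to the right with medians up to 2.27, and the glycolysis list has a median of -0.35.

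Whether cycling differences had another size in these cells than in leukocytes was tested with 69 and 54 depth-matched pairs of leukocyte barcodes. Of 2855 genes 0 were called by edgeR, 0%, with 63 at an unadjusted p under 0.05, and DESeq2 called 0, with 14. Rrm2, the small subunit of ribonucleotide reductase, had 72.8 and 47.8 CPM in cycling gated cells, against 24.9 and 33.7 CPM in non-cycling ones, and it had 22 and 5 UMIs in cycling leukocyte barcodes, against 0 and 0 UMIs in matched non-cycling ones. Over all leukocyte barcodes, not matched, it had 80.2 and 28.9 CPM in cycling ones, against 10.5 and 13.2 CPM. It did not pass, with an adjusted edgeR p of 1 for the interaction. Tyms had 21 and 15 UMIs in cycling leukocyte barcodes, against 1 and 2 UMIs in non-cycling ones. Isg15 had log2 ratios of -1.56 and -1.53 in gated cells, against -0.58 and -0.25 in leukocyte barcodes, and Hk2 -1.07 and -1.21, against 0.19 and 0.64. Cycling leukocyte barcodes also held RNA of the gated cells, with Rhox5 in the depth-matched barcodes of replicate 1 at 64.7 CPM, 16 UMIs, against 20.2 CPM, 5 UMIs, in non-cycling ones, and its part in these values was not tested.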

How the data were processed

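Single-cell RNA of MC38 tumours on day 21 was measured in 2 libraries. The deposited values are raw UMI counts per gene and barcode, made by the authors with Cell Ranger 6.0.1, per the file headers; the submitters' processing notes also name Seurat 4.0.1 and mm10. The gene annotation, and the use made of Seurat, are unstated in the sources used here. The names of the deposited files carry words that the labels do not explain, and these were not used. The libraries total 5688000 and 5862342 UMIs over 32285 genes.

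Members and lists were chosen with earlier results of these data known. Cells were gated as the report describes, and cycling and non-cycling cells of a library were matched 1 to 1 on total UMIs within 10%. Doublets were called per library with Scrublet (scanpy 1.11.5) and left in. Summed counts were tested by the quasi-likelihood method of edgeR 4.0.16 (R 4.3.3) after TMM scaling and with a library block, with Benjamini-Hochberg adjustment over all tested genes; DESeq2 1.42.0 was an alternative. Both classes of a pair come from the same library, so the library number pairs them. CPM are UMI counts scaled to a common total per class sum, and per-library log2 ratios add 0.5 to each count. Nothing says that the libraries are separate animals. The p-values set the class difference only against its variation between these 2 libraries, with dispersions estimated across the tested genes.

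Named genes were the 4 markers, up to 4 genes of each list with the smallest adjusted p and the same direction in both libraries, the 10 largest changes each way outside the lists, the sex genes and 6 listed genes of the interaction. A further 7 genes, and others named from the calls, were added after their values were seen. In all, 12 alternatives were run. Coordinates of genes are from GENCODE on GRCm38.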

Additional observations from a re-analysis of the deposited data

How the results depend on the processing

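Of 12 alternatives, filterByExpr (76 higher, 64 lower) and 2000 or more UMIs (55, 42) changed neither count of calls by over 1.5 times. Leaving out Scrublet calls (65, 52) could not change these counts, since none of the matched gated cells was called a doublet. Counts of genes higher and lower were 13 and 6 with DESeq2, 38 and 27 with DESeq2 size factors in edgeR, 70 and 22 with library totals without TMM, 0 and 0 without a filter, 0 and 0 with no replicate block, 145 and 145 without depth matching, 12 and 11 with cells thinned to 1000 UMIs, 32 and 27 at 3 or more Mki67 and Top2a UMIs and 6 and 0 in cells with no leukocyte marker UMI. Fewer genes were tested in thinned cells (2077), at 3 or more UMIs (2261) and with no leukocyte marker UMI (1630). Pairs numbered 38 and 41 at 3 or more UMIs and 36 and 39 with no leukocyte marker UMI, against 70 and 76 in the main test. Thinned cycling cells summed to 76000 and 86000 UMIs, against 412038 and 334744 in the main test. The cause of the changed counts was not tested. The interaction called 0 genes in each alternative except without a filter, which called 2. The cycling share was 24.8% at 2000 or more UMIs, 8.67% at 3 or more UMIs of both genes and 3.22% in thinned cells, and ranged from 15.4% to 16.3% over the single libraries. The tests have no leave-one-out result, since 1 library leaves no residual degree of freedom.

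Of the 64 called genes that are named, 13 were still called by DESeq2, 42 were not and 9 had no adjusted p; 37 were still called with size factors, 51 with library totals and 54 at 2000 or more UMIs. Signs turned for 2 of these 64 in cells with no leukocyte marker UMI, Spp1 (0.053) and Psma1 (-0.14). Over all called genes tested in that setting, named or not, 40 of 42 lower and 37 of 38 higher ones kept their sign. The other turns among named genes were of genes that were not called. Ccnd1 turned with DESeq2 (-0.0039) and its size factors (-0.00037). In thinned cells Bax (0.52), Ndufv1 (-0.23), Ndufs7 (-0.18), mt-Nd4l (-0.012), Scd2 (-0.30), Rhox5 (0.030) and Crabp1 (-0.022) turned. Without matching, mt-Nd3 (-0.0086), mt-Nd4 (-0.089), Scd2 (-0.41), Rhox5 (0.10) and Crabp1 (-0.020) turned, and the interaction of Col3a1 (-1.09). In cells with no leukocyte marker UMI Ccng1 (0.25), Ndufv1 (-0.032), Scd2 (-0.0064), Rhox5 (0.19) and Lgals7 (0.36) turned. At 3 or more UMIs Dcn (0.10), Rhox5 (0.042) and Lgals7 (0.21) turned, with library totals Rhox5 (0.074) and Lgals7 (0.11), with no replicate block Lgals7 (0.0071) and at 2000 or more UMIs Lgals7 (0.0037).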
